A study of Mus musculus with 16 samples.

Results

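The cells described here carried either of 2 labels that the authors transferred from a reference atlas of mouse gastrulation, Epiblast and Caudal epiblast. Members were all cells with exactly one of these labels that passed the authors' quality filter and were not called doublets, and the labels were kept apart throughout. They numbered 604 of the 37841 cells analysed, with 177 Epiblast and 427 Caudal epiblast cells. All Epiblast cells came from embryonic day (E) 7.5. Of the Caudal epiblast cells, 413 came from E7.5 and 14 from E8.5, and 0 members came from E9.5.

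The cells were taken from chimeric embryos, made with embryonic stem cells (ESCs) that lack *Stat3*, injected into blastocysts of wild-type (WT) genotype and carried by recipient mice. Both the ESCs and the host blastocysts were of the outbred CD1 stock, and the ESCs carried a tdTomato reporter. Dissociated cells were sorted into a tdTomato-positive fraction, here *Stat3* null, and a tdTomato-negative fraction, here WT, and transcript 3′ ends of single cells were sequenced in droplets with unique molecular identifiers (UMIs). At E7.5 there were 2 null and 2 WT libraries, each from pooled embryos that the study had classed as large or small, and at E8.5 there were also 2 and 2. The null cells descended from cultured ESCs grown from picked colonies, with the number of injected lines not given in the sources used here, whereas the WT cells were cells of the host embryos themselves, so the genotype and the origin of the cells cannot be told apart. The libraries of a group are called A and B, and a letter is only a name that pairs no null library with a WT library.

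The epiblast is the pluripotent layer of the embryo that gives rise to all tissues of the fetus. During gastrulation its posterior cells enter the primitive streak and become mesoderm and endoderm, its anterior cells turn into ectoderm, and the caudal part next to the streak, marked by the T-box factor T (brachyury), *Cdx* and *Hox* genes, later feeds the trunk. *Pou5f1* encodes OCT4 and *Utf1* encodes a chromatin-bound factor, both associated with pluripotency. *Stat3* encodes the transcription factor that carries the signal of leukemia inhibitory factor (LIF) through gp130 and the JAK kinases, best known for sustaining ESCs in culture.

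Whole E7.5 libraries held between 360 and 2172 analysed cells and between 20682659 and 90343765 UMIs. The median E7.5 cell carried from 29556 UMIs in WT B to 57791.5 in null B, so null B was the smallest library with the deepest cells. Among the members 0 barcodes were shared between libraries, and 6 members shared a barcode with some other cell of another library. Every member sorted as null and labelled Epiblast held a tdTomato UMI, as did 251 of 255 Caudal epiblast cells of null A and 15 of 16 of null B, and 3 WT-sorted Epiblast cells with a tdTomato UMI had been left out. The Epiblast label rested on 9 cells in WT A, against 125 in WT B, 18 in null A and 25 in null B. The Caudal epiblast label rested on 52, 90, 255 and 16 cells of WT A, WT B, null A and null B.

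The labels were set beside the levels of *Pou5f1*, *Utf1* and *T*. They had been assigned from the expression of these same cells, so a split of markers by label describes them and is no independent check. Summed over the cells of a label and scaled to counts per 1000000 UMIs (CPM), *Pou5f1* in Epiblast stood at 461 and 817 CPM in null A and B and at 401 and 764 CPM in WT A and B. In Caudal epiblast it stood at 726, 809, 674 and 872 CPM in the same order. *Utf1* in Epiblast reached 129, 555, 162 and 396 CPM in null A, null B, WT A and WT B, against 18.2, 29.8, 30.4 and 28.3 CPM in Caudal epiblast. *T* went the other way, with 5.41, 1.30, 5.15 and 6.15 CPM in Epiblast and 286, 240, 218 and 488 CPM in Caudal epiblast. *Pou5f1* was thus high under both labels, *Utf1* was higher in Epiblast and *T* was higher in Caudal epiblast in all 4 libraries, the pattern that the names imply.

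The same held per cell. With every cell thinned to 10000 UMIs, which left out no member, *Utf1* was detected in 66.7% of Epiblast cells of null A, 100% of null B, 55.6% of WT A and 97.6% of WT B, and in 11%, 12.5%, 21.2% and 21.1% of Caudal epiblast cells. *T* was detected in 5.56%, 4.00%, 0% and 7.20% of Epiblast cells, where 0 of 9 cells in WT A leaves room for a share as high as 33.3% by a limit of 3 counts (exact 95% upper limit 33.6%), and in 61.2%, 68.8%, 61.5% and 76.7% of Caudal epiblast cells. Cells labelled Blood progenitors served as a comparison type, though they were not free of these transcripts. In them *T* was found in at most 3.25% and *Utf1* in at most 10.4% of thinned cells of a library. The thinned share of *T* in Epiblast of WT B, 7.20% (exact 95% interval 3.35% to 13.2%), stood against 2.99% (0.364% to 10.4%) in blood progenitors of that library, and that of null B, 4.00%, against 0%. With 9 and 1 Epiblast cells behind these shares, the intervals overlap. At this depth *T* in Epiblast is not distinguished from *T* in blood progenitors, which are not a blank for it. Without thinning, *T* was seen in 22.2%, 8.0%, 22.2% and 16.8% of Epiblast cells, whose median depth was 41509, 61620, 45373 and 29263 UMIs, against 16.2%, 38.9%, 15% and 23.9% in blood progenitors, at 35601 to 65170 UMIs. The *Pou5f1* transcript was found in all thinned Epiblast cells and in 11.1% to 35.8% of blood progenitors. In thinned cells labelled Ectoderm, *Utf1* was detected in 40.5%, 69.4%, 38.5% and 71.5% of null A, null B, WT A and WT B. Each share was below that of Epiblast in the same library. *Pou5f1* was detected in 84.6% to 99.6% and *T* in 0% to 7.44% of Ectoderm cells. Thus *Utf1* and *T* separated Epiblast less from Ectoderm than from Caudal epiblast.

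**Figure D1:**
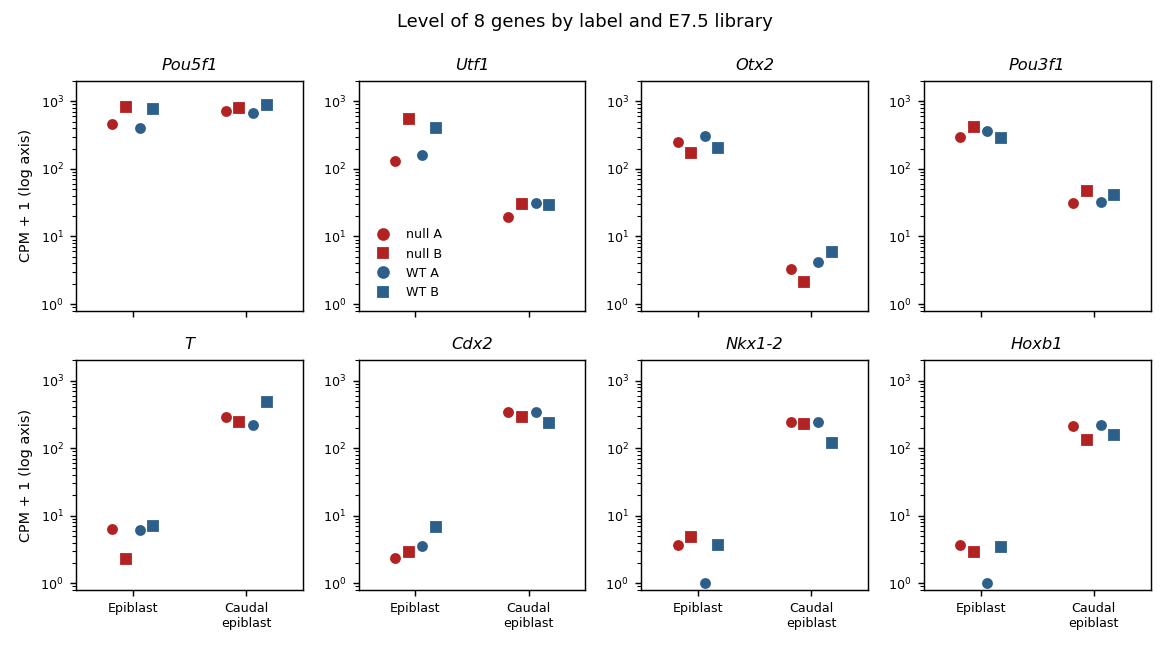
CPM + 1 on a log axis for 8 genes in Epiblast and Caudal epiblast cells, with 1 point for each E7.5 library (red null, blue WT, circle library A, square library B). *Pou5f1* is high under both labels, *Utf1*, *Otx2* and *Pou3f1* are higher in Epiblast, and *T*, *Cdx2*, *Nkx1-2* and *Hoxb1* are higher in Caudal epiblast in all 4 libraries.

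*Stat3* lies on chromosome 11 from 100885098 to 100939540 on the minus strand (GRCm38). The null allele lacks internal coding exons, and 3′ tags lie downstream of them, so the transcript level does not by itself show the deletion. In Caudal epiblast 19 and 0 UMIs were counted in null A and B and 7 and 8 in WT A and B, or 1.84, 0, 3.8 and 2.98 CPM. Both WT values exceeded both null values, with an exact two-sided permutation p of 0.333, the smallest that 2 against 2 libraries can give. The count of 0 in null B allows up to 3.43 CPM (3 counts), above the value of WT B, so the order of these 2 libraries is not settled at this depth. Over the pooled libraries the WT level was 1.95 times the null level, with an exact 95% interval of 0.924 to 4.06 for counting error only. In Epiblast all 6 *Stat3* UMIs fell in WT B (1.60 CPM), and null A, null B and WT A were at 0, which at this depth does not show a difference.

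Epiblast cells made up 0.829% of null A (exact Clopper-Pearson 95% interval 0.492 to 1.31), 6.94% of null B (4.54 to 10.1), 1.24% of WT A (0.571 to 2.35) and 7.01% of WT B (5.87 to 8.30). Caudal epiblast cells made up 11.7% of null A (10.4 to 13.2), 4.44% of null B (2.56 to 7.12), 7.19% of WT A (5.42 to 9.33) and 5.05% of WT B (4.08 to 6.17). The Epiblast share split the libraries within each genotype rather than between the genotypes, with 1 low and 1 high library in each. Epiblast cells per Caudal epiblast cell numbered 0.0706 in null A and 0.173 in WT A, against 1.56 in null B and 1.39 in WT B.

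Tested on cell counts over 27 cell types with edgeR's quasi-likelihood test, the log2 ratio of null to WT was -0.55 (SE 1.34, adjusted p = 0.980) for Epiblast and 0.04 (SE 0.81, adjusted p = 0.980) for Caudal epiblast. These errors are wide enough to hide a change of more than 2-fold in either direction. Leaving out 1 library at a time moved the Epiblast ratio between -3.08 without null B and 1.52 without WT B, with 0.56 without null A, and the Caudal epiblast ratio between -0.60 without null A and 0.37 without null B. Shares of a library also depend on the other cells in it. Cells labelled extra-embryonic ectoderm, visceral endoderm or extra-embryonic endoderm numbered 114, 31 and 10 in WT A and 167, 71 and 32 in WT B, but 2, 2 and 0 in null A and 0 in null B. Without these types the Caudal epiblast ratio was -0.09.

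The atlas stage of the nearest reference cells also varied between libraries. All Epiblast cells except 1 of null A mapped to E7.5. Of Caudal epiblast cells, 46.2% of WT A mapped to E8.0, against 6.67% of WT B, 21.6% of null A and 18.8% of null B. The mean mapped stage of Caudal epiblast was 7.64 embryonic days in both null libraries, between 7.54 in WT B and 7.76 in WT A (exact two-sided permutation p = 1, with 0.333 the smallest possible). The mitochondrial share of UMIs in Caudal epiblast was 1.38% and 1.44% in null A and B against 1.77% and 1.39% in WT A and B, and the ranges overlapped (exact permutation p = 0.667).

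**Figure D2:**
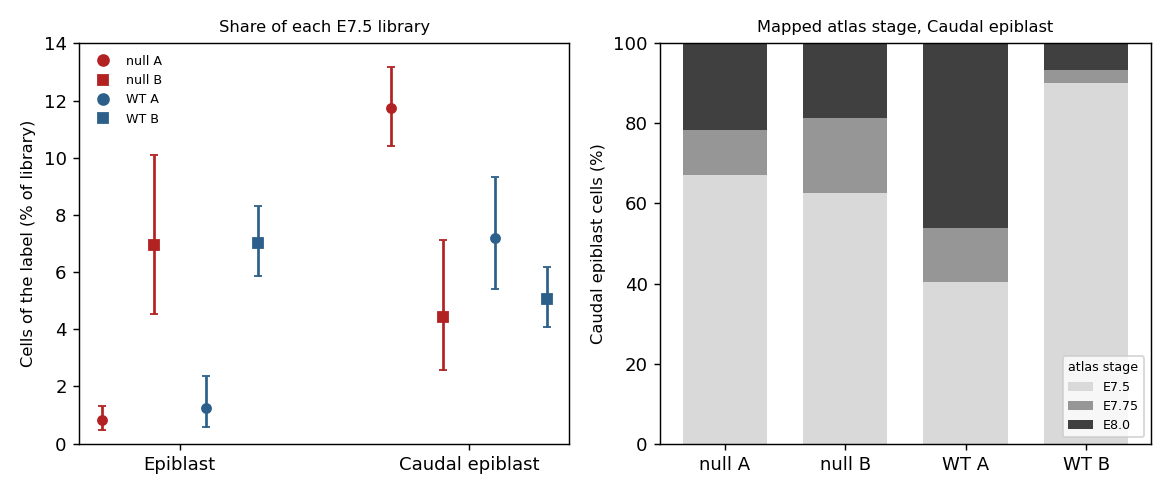
Left, cells of each label as a percentage of all analysed cells of an E7.5 library (red null, blue WT, circle A, square B, bars exact 95% binomial intervals). Right, percentage of Caudal epiblast cells whose mapped atlas stage is E7.5, E7.75 or E8.0, by library, with E8.0 at 46.2% in WT A and at most 21.6% in the other libraries.

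Both labels were assigned from the expression of the same cells, so the genes that separate them are given as a description with no test. In total 1705 genes of at least 20 CPM differed in the same direction in all 4 libraries. Of these, 780 were higher in Epiblast and 925 in Caudal epiblast, and 95 and 189 differed by more than 2-fold in mean level. Genes with a mean of at least 20 CPM numbered 5207 in Epiblast and 5330 in Caudal epiblast. Some of them would agree in direction without a difference between the labels. *Otx2*, a homeobox factor of the head, had the highest ratio for Epiblast and stood at 249, 169, 311 and 203 CPM in null A, null B, WT A and WT B, against 1.14 to 4.84 CPM in Caudal epiblast, a log2 ratio of mean level of 5.91 (pseudocount of 1 CPM). *Hesx1* (4.38) and *Six3* (4.16), also homeobox factors of the anterior neural plate, followed, but *Hesx1* rested on the A libraries, with 40.6 and 74.6 CPM in null A and WT A against 2.59 and 3.47 CPM in null B and WT B. *Six3* was likewise at 89.3 and 59.2 CPM against 7.13 and 24.6 CPM. Each library has equal weight in these means, although the A libraries hold 18 and 9 of the Epiblast cells. The secreted Wnt antagonist *Sfrp1* (3.49), *Shisa2* (3.45), *Utf1* (3.49), the growth factor *Fgf5* (3.45), the POU factor *Pou3f1* (3.16), *Mcf2* (2.94) and the cationic amino acid transporter *Slc7a3* (2.87) completed the 10 highest.

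*Cdx1*, a caudal-type homeobox factor, had the largest ratio for Caudal epiblast and stood at 392, 306, 548 and 158 CPM in null A, null B, WT A and WT B against 0 to 1.95 CPM in Epiblast, a log2 ratio of mean level of -7.76. Among the next were *Cdx2* (-6.26), *Hoxb1* (-6.04), the homeobox gene *Nkx1-2* (-5.97), *T* (-5.81), the Wnt target *Sp5* (-5.81), the noncoding RNAs *Hoxaas3* (-5.64) and *Hotairm1* (-5.62) of the *Hoxa* cluster, and *Gbx2* (-5.47), a homeobox factor of the hindbrain region. Over the 27 *Hox* genes of groups 1 to 9 that were listed, the summed level was 2.57 to 8.12 CPM in Epiblast libraries.

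Between null and WT Caudal epiblast, 17 of 9214 genes tested were called (edgeR quasi-likelihood test on UMIs summed per library, with a Benjamini-Hochberg adjusted p below 0.05 and a log2 fold change beyond 1 in size), a background of 0.185%. They comprised 9 genes higher in null (0.0977%) and 8 lower (0.0868%), and 325 genes had an unadjusted p under 0.05. The growth factor receptor adaptor *Grb10* and the noncoding RNA *H19*, both imprinted, were lower, and the histone gene *Hist1h3c* was higher. In each of the 17, both null libraries lay beyond both WT libraries, which the call itself favours, so it adds no support. *Grb10*, *H19* and *Hist1h3c* were called in 10 of 10 alternatives, while every other gene named here lost its call in at least 1. Of the 17, 7 were also among the 8 calls of DESeq2 and 5 among 9 after thinning. Without WT A, 32 genes were called (10 of the 17 among them), without WT B 11 (5), without null A 10 (6) and without null B 21 (17).

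*Grb10* encodes an adaptor that binds the insulin and IGF1 receptors and restrains growth, and lies on chromosome 11 from 11930508 to 12038683 (GRCm38, minus strand). In Caudal epiblast it measured 4.16 and 3.43 CPM in null A and B and 182 and 156 CPM in WT A and B. The groups were far apart, with a log2 fold change of -5.36 (SE 0.23, adjusted p = 2.64e-15) and a pooled WT level 40.6 times the null level (counting interval 30.1 to 55.9). Over the alternatives the log2 fold change ran from -5.54 to -4.87. The few null UMIs were spread thinly over tdTomato-positive cells. In null A, 43 UMIs fell in 36 of 251 such cells with at most 4 in a cell, and the 4 cells without a tdTomato UMI held 0.

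The same split was present in Epiblast, where *Grb10* had 0 and 1 UMIs in null A and B (0 and 0.648 CPM) against 190 and 158 CPM in WT A and B. Every WT A cell and 97.6% of WT B cells held a *Grb10* UMI, against 0 of 18 null A cells (a share with a UMI of up to 16.7% by a limit of 3 counts, exact 95% upper limit 18.5%) and 4.00% of null B cells. *Grb10* has 2 windows in the promoter table used here, and both are shown because *Grb10* was called under both labels. They run from 250 bases before to 50 after an annotated start (RefSeq, GRCm38.p6), at chr11:12037371-12037670 and chr11:12027922-12028221, both on the minus strand, 5′ to 3′. The first holds 45 CpG and the second 9, against a median of 7 over all windows.
Grb10, first window: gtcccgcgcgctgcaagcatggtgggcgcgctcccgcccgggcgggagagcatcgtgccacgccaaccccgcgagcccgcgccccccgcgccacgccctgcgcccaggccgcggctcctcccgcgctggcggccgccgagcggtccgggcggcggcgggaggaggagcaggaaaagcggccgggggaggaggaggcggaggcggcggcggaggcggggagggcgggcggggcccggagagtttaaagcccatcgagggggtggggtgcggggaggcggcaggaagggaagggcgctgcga
Grb10, second window: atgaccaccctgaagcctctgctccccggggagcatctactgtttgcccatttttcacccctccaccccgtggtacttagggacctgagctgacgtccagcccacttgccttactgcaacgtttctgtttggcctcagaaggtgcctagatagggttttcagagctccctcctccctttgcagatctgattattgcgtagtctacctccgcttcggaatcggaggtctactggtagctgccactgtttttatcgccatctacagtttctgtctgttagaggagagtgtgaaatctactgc

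*H19*, a long noncoding RNA made from the maternal allele next to *Igf2*, lies on chromosome 7 from 142575529 to 142578143 (GRCm38, minus strand). It measured 6.09 and 1.14 CPM in Caudal epiblast of null A and B and 45.6 and 41.3 CPM in WT A and B (log2 fold change -2.99, SE 0.29, adjusted p = 4.54e-07). Without null A the log2 fold change was -5.12, and it ran up to -2.83 over the alternatives. In Epiblast the values were 18.9, 1.30, 46.3 and 48.4 CPM in the same order, and *H19* was not called there (adjusted p = 1.000). Of the 31 imprinted genes tested in Caudal epiblast, *Grb10* and *H19* were called lower and 0 higher, and the median log2 fold change over the list was 0.01, against 0.00 over all genes. *Zdbf2*, a paternally expressed gene, passed the p threshold at a smaller change, with 186 and 145 CPM in null A and B and 85.7 and 94.5 CPM in WT A and B (log2 fold change 0.92, SE 0.15, adjusted p = 0.00258).

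Among genes higher in null Caudal epiblast, *Hist1h3c* encodes a replication-dependent histone H3 in the histone cluster of chromosome 13. It measured 74.2 and 75.5 CPM in null A and B and 29.3 and 24.2 CPM in WT A and B (log2 fold change 1.51, SE 0.20, adjusted p = 4.98e-05). In Epiblast *Hist1h3c* was at 69.0, 64.2, 66.9 and 38.8 CPM in null A, null B, WT A and WT B and was not called. Histone H3 genes are near-identical copies between which the counting could split reads, which was not measured here.

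Also called higher were *Zfp990* and *Zfp979*, zinc finger genes on chromosome 4. *Zfp990* measured 49.8 and 52.6 CPM in null A and B and 23.3 and 17.1 CPM in WT A and B (log2 fold change 1.36, SE 0.22, adjusted p = 0.00173). *Zfp979* measured 16.8 and 22.9 CPM in null and 5.42 and 6.32 CPM in WT (log2 fold change 1.62, SE 0.33, adjusted p = 0.0216). In the list of 8 genes of the *Zfp979* cluster, which does not hold *Zfp990*, 4 were tested, 1 was called higher and 0 lower, and the median log2 fold change was 1.06. Its members *Zfp984*, at 15.7 and 16 CPM in null and 10.8 and 6.32 CPM in WT, and *Zfp985*, at 14.8 and 25.2 CPM against 8.68 and 6.70 CPM, were not called. Genes of this cluster are close paralogs between which the counting could split reads, which was not measured here, so their separate levels are uncertain. *Zfp990* and *Zfp979* lost their calls with DESeq2, after thinning and without WT B, and *Zfp979* also without WT A or null A. Their log2 fold changes ran from 1.07 to 1.56 and from 1.13 to 1.98 over these settings.

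Other genes higher in null Caudal epiblast had lower levels in most cases. *Thg1l*, which encodes the tRNA histidine guanylyltransferase, measured 45.5 and 68.7 CPM in null A and B and 21.2 and 22.7 CPM in WT A and B (log2 fold change 1.27, SE 0.23, adjusted p = 0.00722). *Alox15*, an arachidonate lipoxygenase, measured 18.2 and 20.6 CPM in null and 5.97 and 3.72 CPM in WT (log2 fold change 2.0, SE 0.34, adjusted p = 0.00310). In Epiblast *Alox15* had 0 UMIs in all 4 libraries, and in Ectoderm it reached at most 0.941 CPM. *B4galt6*, a lactosylceramide synthase, stood at 17.6, 21.7, 5.42 and 5.58 CPM in null A, null B, WT A and WT B, and the olfactory receptor gene *Olfr655* at 12.7, 20.6, 3.25 and 3.35 CPM. *Fam196b* had 5.51 and 6.87 CPM in null and 0 UMIs in WT, at least 8.48-fold higher in null over the pooled libraries when WT is set to 3 counts, a bound of 5.03 without WT A and 3.45 without WT B. *Thg1l*, *B4galt6*, *Olfr655* and *Fam196b* lost their calls with DESeq2 and without WT A or WT B, *B4galt6* and *Olfr655* also without null A, and *Thg1l* and *B4galt6* also after thinning. Neither *Olfr655* nor *Fam196b* could be fitted after thinning, nor *Fam196b* without null A. *Alox15* lost its call with DESeq2, after thinning and without WT B or null A. Over these settings the log2 fold change ran from 0.93 to 1.68 for *Thg1l*, from 1.67 to 2.31 for *Alox15*, from 1.66 to 2.02 for *B4galt6* and from 1.92 to 2.65 for *Olfr655*.

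Lower in null beside *Grb10* and *H19* were *Pusl1*, *Akr1e1*, *Akr1b8*, *Ttr*, *Nr1h5* and *Rhox5*. *Pusl1*, a pseudouridine synthase-like gene, measured 6.76 and 14.9 CPM in Caudal epiblast of null A and B and 27.7 and 41.7 CPM in WT A and B (log2 fold change -2.13, SE 0.32, adjusted p = 0.00287), and its call was lost with DESeq2 and without null A. The aldo-keto reductase genes *Akr1e1* (1.35 and 2.29 CPM in null, 10.3 and 10.0 CPM in WT) and *Akr1b8* (1.06 and 2.29 CPM in null, 11.9 and 5.95 CPM in WT) lost their calls with DESeq2 and without WT A, WT B or null A. *Ttr*, which encodes the thyroid hormone carrier transthyretin and is abundant in visceral endoderm, had 0 UMIs in both null libraries and 7.05 and 14.9 CPM in WT A and B, at least 43.7-fold lower in null over the pooled libraries with null set to 3 counts. This bound rested on null A, and without it was 3.41. *Nr1h5*, a nuclear receptor gene, had 0 UMIs in null and 7.05 and 12.3 CPM in WT, at least 38.0-fold lower, or 2.96-fold without null A. The X-linked homeobox gene *Rhox5*, abundant in extra-embryonic tissue, had 0.483 and 0 CPM in null and 5.97 and 16 CPM in WT (log2 fold change -4.62, SE 0.67, adjusted p = 0.000580). *Ttr* and *Nr1h5* lost their calls without null A, and *Rhox5* without null A or WT B. Too few counts were left to fit *Ttr* and *Nr1h5* without WT B or after thinning, and *Akr1e1*, *Akr1b8* and *Rhox5* after thinning. Over the alternatives the log2 fold change ran from -2.39 to -1.20 for *Pusl1*, from -2.89 to -2.08 for *Akr1e1*, from -3.27 to -1.84 for *Akr1b8* and from -7.38 to -3.67 for *Rhox5*.

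*Ttr* and *Rhox5* are themselves members of lists of extra-embryonic markers. Over 18 visceral endoderm markers, the summed level in Caudal epiblast was 25.4 and 16 CPM in null A and B and 55.3 and 104 CPM in WT A and B, and in Epiblast 40.6 and 16.9 CPM against 51.5 and 102 CPM. Of these markers 4 and 12 had 0 UMIs in Caudal epiblast of null A and B, and 2 in each WT library. Among the 5 tested in Caudal epiblast, 1 (*Ttr*) was called lower, and the median log2 fold change was -1.90. For 12 extra-embryonic ectoderm markers, 1 of 6 tested (*Rhox5*) was called lower, and the summed level in Caudal epiblast was 547 and 509 CPM in null against 606 and 534 CPM in WT. In Epiblast their summed level was 148 and 97.3 CPM in null A and B against 208 and 223 CPM in WT A and B, and of 3 tested 0 were called and 3 were below 0, with a median log2 fold change of -1.33. As given above, WT libraries held 155 and 270 extra-embryonic cells and null libraries 4 and 0. Null B thus held 0 such cells, but its extra-embryonic ectoderm markers summed to 509 CPM in Caudal epiblast and 97.3 CPM in Epiblast. The sum in Caudal epiblast therefore does not by itself measure RNA from such cells. The part of RNA from such cells in the levels of *Ttr*, *Rhox5* and *Spink1* was not tested. *Xist*, the RNA of the inactive X chromosome, was also unevenly spread, with 0.387 and 0 CPM in Caudal epiblast of null A and B and 309 and 66.2 CPM in WT A and B. No sex of donor or host cells was given in the sources used here. A difference in sex therefore cannot be told apart from genotype in any call between null and WT. The part of the *Xist* difference in X-linked *Rhox5* was not tested.

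**Figure D3:**
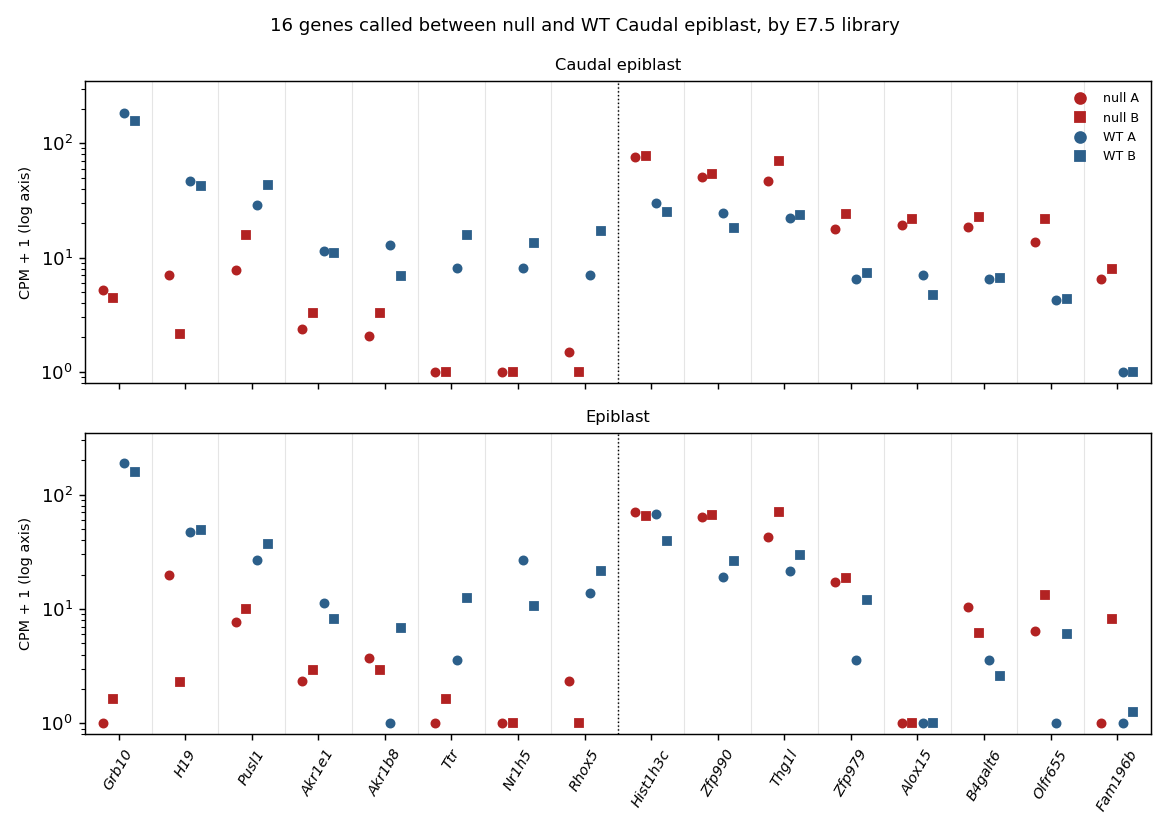
CPM + 1 on a log axis for 16 of the genes called between null and WT Caudal epiblast, in Caudal epiblast (top) and Epiblast (bottom), with 1 point for each E7.5 library (red null, blue WT, circle A, square B). The dotted line divides the 8 genes lower in null, led by *Grb10* at 3.43 to 4.16 CPM in null and 156 to 182 CPM in WT, from 8 genes higher in null, among them *Hist1h3c*.

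STAT3 binds DNA at palindromes of the form TTCNNNGAA, which read the same on both strands. Promoter windows were at hand for 10 of the 19 genes called in any comparison here, in 12 windows, of which 1 (8.33%) held these letters, against 8.30% of 32851 windows of the same length. The match lay in 1 window of *Thg1l*, and another window of this gene, at chr11:45955454-45955753, held 0 matches and is not shown. Shown are the windows of *Thg1l* at chr11:45955139-45955438 (minus strand) and of *T*, a marker of Caudal epiblast, at chr17:8434173-8434472 (plus strand). Each holds a match, set in capitals (RefSeq, GRCm38.p6, 5′ to 3′, 250 bases before the start to 50 after). *Pou5f1* and *Utf1* windows held 0 matches. A window of *Zdbf2*, which was not called, also holds a match and is not shown. A match describes the letters only.
Thg1l: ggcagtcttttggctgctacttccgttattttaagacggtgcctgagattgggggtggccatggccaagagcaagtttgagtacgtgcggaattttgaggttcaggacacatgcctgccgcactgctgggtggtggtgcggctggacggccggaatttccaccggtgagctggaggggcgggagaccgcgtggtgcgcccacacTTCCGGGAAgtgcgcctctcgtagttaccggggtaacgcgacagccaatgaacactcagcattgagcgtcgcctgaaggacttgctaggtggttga
T: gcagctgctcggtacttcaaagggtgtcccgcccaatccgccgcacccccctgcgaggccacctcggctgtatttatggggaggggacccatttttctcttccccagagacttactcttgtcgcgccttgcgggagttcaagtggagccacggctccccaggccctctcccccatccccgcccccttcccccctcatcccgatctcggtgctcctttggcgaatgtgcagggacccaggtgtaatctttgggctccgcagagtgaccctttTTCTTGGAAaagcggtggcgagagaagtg

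Between null and WT Epiblast, only the 3 libraries with more than 15 cells entered the fit (null A, null B and WT B), so 2 null libraries stood against 1 WT library, which is assumed to vary as the null libraries do. Called were 3 of 8849 genes, a background of 0.0339%, with 1 higher (0.0113%) and 2 lower (0.0226%), and 105 genes had an unadjusted p under 0.05. *Grb10*, with the values given above, had a log2 fold change of -8.31 (SE 0.51, adjusted p = 4.78e-06), and the level in WT B was 362 times the level over the pooled null libraries, with a counting interval of 64.6 to 14305. The serine protease inhibitor gene *Spink1*, listed among visceral endoderm markers, measured 1.35 and 1.95 CPM in null and 33.7 CPM in WT B (log2 fold change -4.22, SE 0.57, adjusted p = 0.0160), with 10.3 CPM in WT A.

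With WT A included, a fit chosen after seeing the data, 2 of 7607 genes (0.0263%) were called in Epiblast, with 1 higher (0.0131%) and 1, *Grb10*, lower (0.0131%), and *Spink1* was not called. DESeq2 on the 3 libraries gave 2 calls, *Grb10* among them and *Spink1* not. Leaving 1 library out of the fit of all 4 gave 55 calls without null A, 11 without null B and 1 without WT B. *Spink1* in Caudal epiblast measured 3.09, 1.14, 12.5 and 33.9 CPM in null A, null B, WT A and WT B and fell just short of the threshold (adjusted p = 0.0609).

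Genes that define the labels were not among the calls. Cells received a label by their expression of such genes, so the levels within a label were partly set by the choice of cells, and a missing call says little about them. In Caudal epiblast *T* had a log2 fold change of -0.41 (SE 0.56, adjusted p = 1.000), and *Pou5f1* of 0.00 (SE 0.13, adjusted p = 1.000). *Cdx2* stood at 343 and 285 CPM in null A and B and at 339 and 233 CPM in WT A and B. *Nkx1-2* stood at 239 and 228 CPM in null and at 245 and 116 CPM in WT. For both genes null and WT libraries overlapped. Of 18 tested genes of caudal identity, 0 were called in either direction and the median log2 fold change was 0.17, and of 14 *Hox* genes 0 were called with a median of 0.00. In Epiblast 0 of 19 tested genes of formative and primed epiblast were called (median -0.03), nor any of 10 of the pluripotency core (median 0.01), and *Utf1* had a log2 fold change of -0.17 with an SE of 1.41.

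The pathway of *Stat3* itself was sparsely expressed. Of 30 listed genes of LIF, gp130, JAK and STAT signalling, 14 were tested in Caudal epiblast and 12 in Epiblast, with 0 called in either direction and medians of -0.09 and 0.21. *Il6st*, which encodes gp130, measured 9.57 and 5.72 CPM in Caudal epiblast of null A and B and 15.7 and 12.6 CPM in WT A and B (log2 fold change -0.66, SE 0.31, adjusted p = 1.000). The feedback inhibitor *Socs3*, a target of STAT3, measured 5.70 and 12.6 CPM in null and 9.22 and 5.95 CPM in WT, and the groups overlapped. *Socs2* measured 21.6 and 13.7 CPM in null and 29.3 and 31.6 CPM in WT, which did not overlap but did not pass the test (log2 fold change -0.62, SE 0.24, adjusted p = 0.929). The largest change of the list was that of *Junb*, an AP-1 factor, at 9.47 and 4.58 CPM in null and 2.17 and 2.60 CPM in WT, which did not overlap but did not pass the test (log2 fold change 1.80, SE 0.49, adjusted p = 0.230). Of the 14 genes, 3 (*Junb*, *Socs2* and *Il6st*) had an unadjusted p under 0.05. The kinase gene *Jak1* ranged from 19 to 27.5 CPM in Caudal epiblast. Among 14 genes of naive pluripotency and the LIF response, 4 were tested in Caudal epiblast and 2 in Epiblast, and 0 were called, with medians of -0.20 and 0.83.

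No gene of the signalling lists was called either. In Caudal epiblast, where the median over all genes was 0.00, medians were -0.34 over 7 genes of the Nodal pathway, 0.15 over 18 of the FGF pathway, -0.07 over 22 of canonical Wnt and -0.15 over 13 of BMP signalling. Medians were 0.08 over 20 genes of G1/S and S phase, 0.03 over 20 of G2/M, -0.09 over 21 of glycolysis and hypoxia and -0.01 over 40 nuclear genes of oxidative phosphorylation. Of 18 p53 targets and cell death genes tested, 0 were called. The cell cycle inhibitor *Cdkn1a*, a p53 target, measured 96.2 and 138 CPM in null and 67.8 and 75.9 CPM in WT, which did not overlap but did not pass the test (log2 fold change 0.65, SE 0.19, adjusted p = 0.335). In Epiblast 0 of 17 p53 targets, 20 genes of G1/S, 9 of the Nodal pathway and 17 of the FGF pathway were called, with medians of 0.16, 0.17, 0.17 and 0.43.

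Whether null cells differed from WT cells in another way under the 2 labels was tested as an interaction over the 3 libraries with more than 15 cells of each. Called was 1 of 9933 genes (0.0101%), *Sox2*, and 165 had an unadjusted p under 0.05. *Sox2*, which encodes a factor of pluripotent and neural cells, measured 275 and 123 CPM in Epiblast of null A and B and 199 CPM in WT B, and 91.6 and 66.4 CPM in Caudal epiblast of null A and B and 25.3 CPM in WT B. The null effect was higher in Caudal epiblast by 1.64 on the log2 scale (SE 0.31, adjusted p = 0.00169). WT A, left out for its 9 Epiblast cells, stood at 291 CPM in Epiblast and 111 CPM in Caudal epiblast, above both null libraries in each. With WT A included the difference was 0.84 (SE 0.62) and 0 genes were called, and without WT B it was 0.09, so the call rested on WT B. *Grb10* and *H19* were not called in this comparison. The difference of the null effect between Caudal epiblast and Ectoderm, the most abundant related label (388, 36, 91 and 242 cells in null A, null B, WT A and WT B), a comparison chosen after seeing the data, was called for 0 of 10029 genes (0.0%) by edgeR, with 209 at an unadjusted p under 0.05. Leaving out 1 library there gave between 1 call without null B and 18 without WT A. In Ectoderm *Grb10* measured 2.95, 0.929, 179 and 154 CPM in the same order.

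The members also differed between the libraries of 1 genotype, a pattern noticed after the values were seen and given without a test. In Epiblast, some genes, anterior ones among them, were high in both A libraries. *Hesx1* measured 40.6 CPM in null A and 74.6 in WT A, against 2.59 in null B and 3.47 in WT B. *Lhx5*, a factor of the anterior neural plate, measured 24.4 and 43.7 CPM against 2.59 and 6.95. The receptor gene *Fgfr2* measured 39.2 and 59.2 CPM against 3.24 and 12.3. *Hesx1*, *Lhx5* and *Fgfr2* were thus higher in each A library than in either B library. The median share of reference neighbours labelled Epiblast was 62% and 64% in null A and WT A, against 80% in both B libraries.

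Other genes, some of the streak, were high in the B libraries. The T-box factor gene *Eomes* measured 94.0 CPM in Epiblast of null B and 30.5 in WT B, against 1.35 in null A and 2.57 in WT A. *Fgf8*, a growth factor of the streak, measured 116 and 15.2 CPM against 5.41 and 2.57. The Nodal co-receptor gene *Tdgf1* measured 79.1 and 15.8 CPM against 0 in both A libraries. The forkhead gene *Foxd3*, needed in the pluripotent epiblast, measured 31.8 and 24.6 CPM against 0, and *Fst*, an activin antagonist, 81.0 and 68.7 CPM against 8.12 and 2.57. At these levels a zero in WT A, with 388706 UMIs in all, allows up to 7.72 CPM (3 counts), and a zero in null A up to 4.06 CPM.

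Over 5 lists (pluripotency core, formative and primed epiblast, primitive streak and early mesoderm, neural and anterior ectoderm, FGF pathway), 45 genes reached 20 CPM in at least 1 of the 4 Epiblast libraries. Of these, 21 differed between A and B by more than 1 on the log2 scale (pseudocount of 1 CPM) in both genotypes, 8 higher in A, 13 lower in A and 0 in opposite directions. In Caudal epiblast 52 genes reached 20 CPM and 4 differed so far in both genotypes. Among all 6085 genes that passed the same filter in Epiblast, 99 differed so far in both genotypes (1.63%), with 38 higher in A, 45 lower in A and 16 in opposite directions. Among 5913 genes in Caudal epiblast there were 14 (0.237%), with 12 higher in A and 2 lower. Across the 6085 genes in Epiblast, the difference of null A from null B and that of WT A from WT B had a Pearson r of 0.335, and across the 5913 genes in Caudal epiblast of 0.109. The points are genes of the same few cells and not replicates, and the sign of r rests on which library was named A. The sums rest on 9 and 18 cells in the A libraries, and stage or size of the pooled embryos and the library cannot be told apart, since no label ties a library to an embryo class. Summed lists also split A from B in Ectoderm, given here as null A, null B, WT A and WT B. The neural and anterior list summed to 846, 425, 1074 and 508 CPM there. The primitive streak and early mesoderm list summed to 168, 269, 174 and 301 CPM. The FGF list, at 345, 285, 492 and 284 CPM, was higher in A there. In Epiblast the FGF list summed to 305, 626, 347 and 362 CPM in the same order. It was thus lower in A in the null pair, while the WT pair was nearly equal.

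**Figure D4:**
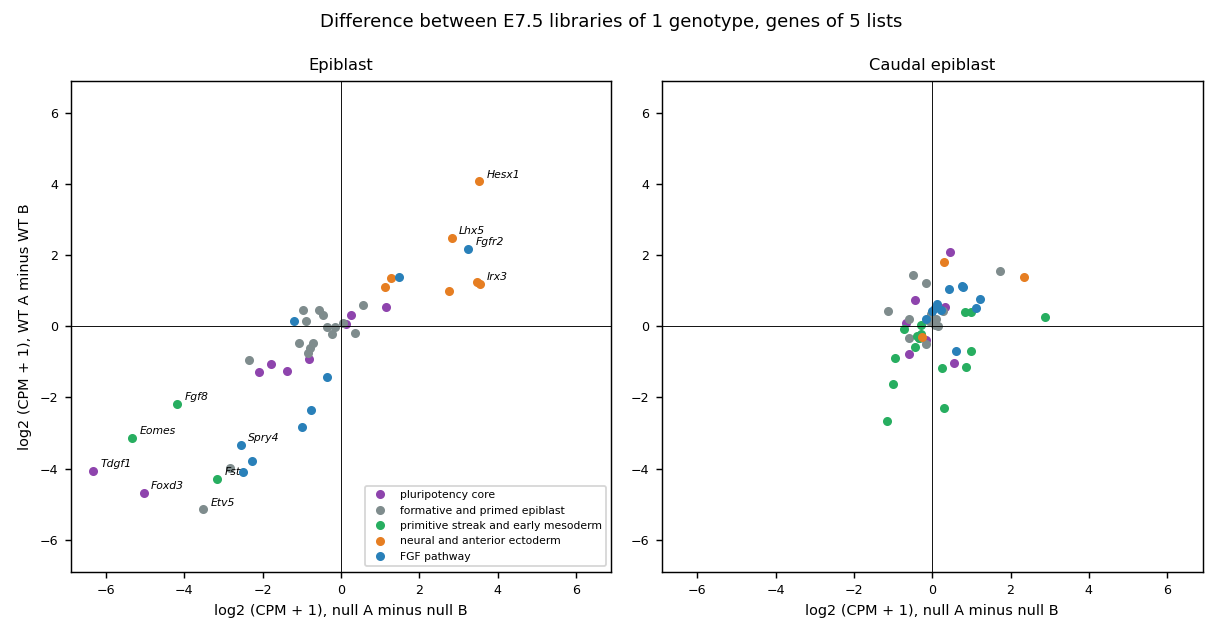
Difference in log2 (CPM + 1) between library A and library B for genes of 5 lists, in null (horizontal axis) and WT (vertical axis), for Epiblast (left) and Caudal epiblast (right), with 1 point for each gene and colours for lists. In Epiblast *Hesx1* and *Fgfr2* lie upper right and *Eomes* and *Fgf8* lower left, whereas 4 of 52 genes in Caudal epiblast differ by more than 1 on both axes.

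At E8.5 the Caudal epiblast label was rare, with 4 cells in null B, 10 in WT B and 0 in both A libraries. These cells held 113624 and 163602 UMIs. With 1 library per genotype there is no replicate check and no test. The median share of reference neighbours that carried the label was 58% and 50%, below the 88% to 96% of Caudal epiblast at E7.5. *T* stood at 194 CPM in null B and 165 CPM in WT B, *Cdx2* at 326 (exact Poisson 95% interval 229 to 449) and 208 CPM (144 to 290), and *Utf1* at 0 in both. The posterior gene *Hoxb9* measured 370 CPM (266 to 500) in null B and 293 CPM (216 to 389) in WT B, against at most 30.4 CPM in any E7.5 library, and *Cdx4* 493 and 379 CPM against at most 35.8 CPM. The counting intervals of null B and WT B did not overlap for *Hoxb1*, at 35.2 CPM (9.59 to 90.1) in null B and 171 CPM (114 to 247) in WT B, nor for *Hoxc8*, at 282 CPM (193 to 398) and 122 CPM (74.7 to 189). The same held for *Etv4*, at 370 CPM (266 to 500) and 183 CPM (124 to 262), and for *H19*, whose values follow. These intervals cover counting error only, over 4 and 10 cells, and do not test the genotype. *Pou5f1* stood at 123 and 141 CPM, under every E7.5 value of either label.

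*Grb10* in these E8.5 cells measured 158 CPM (93.9 to 250) in null B and 281 CPM (206 to 375) in WT B, with overlapping intervals. Of the 18 null UMIs, 12 fell in 2 of the 3 cells with a tdTomato UMI and 6 in the 1 cell without one. This differs from E7.5, where 3.43 to 4.16 CPM were seen in null Caudal epiblast, but it rests on 4 cells. *H19* had 0 UMIs in null B, which allows up to 26.4 CPM (3 counts), and 67.2 CPM (33.6 to 120) in WT B.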

How the data were processed

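The authors mapped 3′ single-cell reads to mm10 with Cell Ranger, counted them against a GRCm38.p5 annotation with tdTomato added, and deposited raw UMI counts per gene and cell without normalization, together with the mitochondrial percent, a doublet call and labels transferred from an atlas, whose score (the share of reference neighbours with the label) is a deposited fraction. Of 192657 barcodes 41832 passed their filter. Cells called doublets (3395) and WT-sorted ones in which tdTomato was detected were left out. Libraries were grouped by the stage and tdTomato sort columns of the deposited cell table, with tdTomato-positive cells taken as null as the study describes. The library names in that table match no sample title, so the embryo pool, a block in the study's design, could not be fitted.

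UMIs were summed per label and library. Of 29453 genes 8164 were left out (*Xist*, *Tsix*, tdTomato, Y-linked and haemoglobin genes, genes of mitochondria and ribosomal proteins, predicted genes). Libraries with more than 15 cells of a label were fitted in R 4.3.3 with edgeR 4.0.16 (filterByExpr, TMM, quasi-likelihood test, Benjamini-Hochberg adjustment over all genes tested). DESeq2 1.42.0 was an alternative. Tables used Python 3.11.15, numpy 2.4.6, scipy 1.17.1, pandas 2.3.3 and matplotlib 3.10.9. Scripts were tested on simulated data first. CPM is counts per 1000000 UMIs of the label in a library. A positive log2 fold change means higher in null. Positions are from GENCODE on GRCm38.

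Named genes are *Stat3*, *Pou5f1*, *Utf1*, *T*, called genes of the lists, and the 10 largest called changes in each direction with groups that do not overlap. For the labels, they are the 10 largest ratios in each direction of genes with at least 20 CPM. Some genes that meet these rules are not reported here. Other genes named were chosen after their values were seen. The members and lists were chosen with earlier results of these data known. Planned tests at E8.5 and between stages were not run, since no E8.5 library had more than 15 cells, and Primitive Streak had too few cells to compare. Epiblast was fitted with 2 null libraries against 1 WT library. The edgeR fits used the planned robust option. P-values measure the spread between libraries of pooled embryos, and intervals, like the limit of 3 counts set for a count of 0, cover counting error only.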

Additional observations from a re-analysis of the deposited data

Results flagged for a closer look

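The difference of the null effect between Caudal epiblast and Epiblast for *Sox2* was 1.64 on the log2 scale, picked out because the interaction itself was tested and passed. It rested on 3 libraries, with 1 WT library, WT B, in which *Sox2* was at 25.3 CPM in Caudal epiblast against 111 CPM in WT A. With all 4 libraries the difference was 0.84 (SE 0.62), and without WT B it was 0.09, neither called. Groups of 2 libraries are too small for a search for outlying samples.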

How the results depend on the processing

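No paired analysis was possible because no sample title matches a library name in the cell table, so no replicate number could be given to a library. Neither DESeq2 size factors in edgeR, nor null cells restricted to those with a tdTomato UMI, nor all WT-sorted cells moved a count of calls by over 1.5 times. Calls in Caudal epiblast numbered 17, against 31 without a filter on low counts, 8 with DESeq2, 9 with cells thinned to 10000 UMIs, and 10 to 32 on leaving out 1 library. None of the 17 called genes changed sign in any of these settings that could be fitted for it. Calls in Epiblast numbered 3, against 15 without the filter. With all 4 libraries, chosen after seeing the data, leaving out 1 library gave 1 to 55 calls. The difference of the null effect between the labels gave 1 call, against 0 with all 4 libraries and, from that fit, 1 to 18 on leaving out 1 library. Between Caudal epiblast and Ectoderm it gave 0 calls, against 2 without the filter and 1 to 18 on leaving out 1 library. The log2 ratio of Caudal epiblast cells (0.04) turned to -0.086 without extra-embryonic types and was 0.43 with library totals in place of TMM. It ran from -0.60 to 0.37 on leaving out 1 library (-0.06 without WT B). The ratio of Epiblast cells (-0.55) was -0.15 with library totals. On leaving out 1 library it ran from -3.08 to 1.52 (0.56 without null A). For E8.5 the ratio of Caudal epiblast cells could be had only without a minimum of cells (-0.42). The *Stat3* difference in Epiblast (-1.60 CPM) was -1.82 with all WT-sorted cells and -1.60 with thinned cells. The cause of these changes was not tested. Depth limits *Stat3* and other genes near 1 CPM, and cell numbers limit Epiblast in WT A.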
